A study of Mus musculus with 6 samples.

Results

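The embryonic and adult globin genes and a pair of factors that repress the embryonic ones were followed here in the RNA of fetal liver (FL) progenitors that carry or lack hnRNP L, an RNA-binding protein with roles in pre-mRNA splicing. They are 9 of the 38293 genes counted. The embryonic globins are *Hbb-y* and *Hbb-bh1* (beta-like) and *Hba-x* (alpha-like), the adult globins are *Hbb-bs* and *Hbb-bt* (beta) and *Hba-a1* and *Hba-a2* (alpha), and the factors are *Bcl11a* and *Sox6*. They were chosen by name and found by their Ensembl identifiers, and all 9 passed the filter on low counts in the 6 libraries. RNA was taken from sorted Lin-cKit+ FL cells at embryonic day 14.5, 3 libraries from wt embryos and 3 from hnRNP L deficient embryos, labelled as knock-out and VavCre+ hnRNP L fl/fl by the study's methods. All 6 embryos are labelled as C57BL/6. In the deficient embryos Cre is driven by the Vav promoter and removes the floxed alleles in hematopoietic cells. The labels call the other embryos wild-type, but the study also writes its controls as L fl/fl, so that they may carry floxed alleles without Cre. The labels name FL cells as the source and the whole embryo as the tissue, while the sort is given by the study's methods. The antibodies of the lineage cocktail included Ter119, which marks maturing erythroid cells. On GRCm38 the beta-like genes lie on the minus strand of chromosome 7, *Hbb-bt* at chr7:103812524-103813996, *Hbb-bs* at chr7:103826534-103828096, *Hbb-bh1* at chr7:103841637-103843164 and *Hbb-y* at chr7:103851749-103853216. *Sox6* (chr7:115470872-116038796, minus strand) and *Hnrnpl* (chr7:28808541-28822266, plus strand) are on the same chromosome. The alpha-like genes, *Hba-x* at chr11:32276400-32278116, *Hba-a1* at chr11:32283511-32284465 and *Hba-a2* at chr11:32296489-32297298, and *Bcl11a* at chr11:24078056-24174123 are on the plus strand of chromosome 11.

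Hemoglobin is built of alpha-like and beta-like chains, whose genes lie in clusters on different chromosomes and are used in turn during development. Primitive erythroid cells of the yolk sac make embryonic chains, and definitive erythroid cells of the FL switch to adult chains. Bcl11a, a zinc finger repressor, and Sox6, an HMG box protein that acts with it, silence the embryonic beta-like genes in definitive cells.

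In short, none of the 9 genes differed between hnRNP L deficient and wt cells beyond the spread between embryos. What varied most was the embryonic globins of wt 3, which were far below those of every other library. Within the adult beta pair, the share of *Hbb-bs* was lower in all 3 hnRNP L deficient libraries than in any wt library. That share covers only reads that could be placed on 1 gene of the pair. Its difference did not pass 0.05 (exact permutation p = 0.1, 0.6 after adjustment over 6 shares). Of single genes tested, 45.5% did not overlap between the groups either. Around these genes, the nuclear receptors *Nr2c1* and *Nr2c2* and the heme-regulated repressor *Bach1* were lower in hnRNP L deficient cells. They had the lowest p in a list of 14 genes. Of all genes tested, 9.85% were lower at an edgeR adjusted p under 0.05. None of these receptors or *Bach1* passed that threshold without wt 3, or without any 1 of the hnRNP L deficient libraries.

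The adult pairs can hardly be told apart by sequence, which bears on every adult globin value. In GENCODE M21 (GRCm38) the coding sequences of *Hbb-bs* and *Hbb-bt* differ at 1 of 444 bases, written C417T with positions counted from the A of the start codon in *Hbb-bs*. Those of *Hba-a1* and *Hba-a2* differ at 1 of 429 bases, C381T from *Hba-a1* to *Hba-a2*. The stretches of coding sequence around these bases, all within the last exon, are shown because the coding parts of a pair differ at that base alone, in capitals here. They lie at chr7:103826665-103826722 on the minus strand for *Hbb-bs*, chr7:103812656-103812713 on the minus strand for *Hbb-bt*, chr11:32284313-32284373 on the plus strand for *Hba-a1* and chr11:32297130-32297190 on the plus strand for *Hba-a2*.
Hbb-bs: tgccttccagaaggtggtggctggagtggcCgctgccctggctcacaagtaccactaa
Hbb-bt: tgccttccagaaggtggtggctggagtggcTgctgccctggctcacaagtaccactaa
Hba-a1: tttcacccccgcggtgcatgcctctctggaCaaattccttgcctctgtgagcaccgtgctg
Hba-a2: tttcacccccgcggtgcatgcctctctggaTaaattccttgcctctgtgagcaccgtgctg

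Over whole transcripts, windows of 100 bases that occur in the transcripts of no other gene made up 37.4% of *Hbb-bs*, 45.2% of *Hbb-bt*, 43.5% of *Hba-a1* and 25.5% of *Hba-a2*. The same share was 100% for *Hbb-y*, *Hbb-bh1*, *Hba-x* and *Sox6*, and 98.4% for *Bcl11a*. With windows of 50 bases the adult shares were lower, at 34.2% for *Hbb-bs*, 41.7% for *Hbb-bt*, 32.5% for *Hba-a1* and 13.1% for *Hba-a2*. The transcripts used had 699 bases for *Hba-a1* and 554 for *Hba-a2*. Both include a 5′ stretch on which 0 reads were counted, so that their shares also cover bases without counted reads. Which length is nearer to the reads is not known, as read length is not given. The study names a paired-end (PE) cluster kit, and a window does not use the other read of a pair. The shares of windows therefore need not equal the shares of reads that can be placed. Between 39.8% and 44.7% of all listed reads were set aside as aligned to several places and counted on no gene. By library this was 39.8%, 42.8% and 44.7% in wt 1 to 3 and 44.6%, 44.7% and 44.1% in hnRNP L deficient 1 to 3. It was thus lowest in wt 1 and wt 2, and its part in the adult globin values was not tested. The adult globin values are therefore a count of the reads that can be placed, and are uncertain as levels, while the embryonic ones are not touched by a copy. *Hbb-bh1* was also distinct from *Hbb-y*, with 76.4% identity of the coding sequence.

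Sequences upstream of the RefSeq start sites of the globins are shown with letters that regulators of globin genes can bind. They cover the stretch from base -100 to base -71 before the start site, from the GRCm38.p6 table. For *Hbb-bs*, *Hba-x* and *Hba-a1* the stretch lies within the gene coordinates given above, which begin further upstream. That of *Hbb-bt* overlaps the edge of its gene, and those of *Hbb-y* and *Hba-a2* lie outside. Both strands were searched for CCACACCC, a box of the type bound by Klf1, and for the looser form CCNCNCCC, which covers every match of the first. For GATA factors the letters were AGATAA or, in the other form, TGATAA. The promoter boxes searched were CCAAT as such, then for the TATA box TATAAA or the globin variant ATAAAA. Bcl11a was represented by TGACCA, Sox factors by AACAAT and nuclear receptors by AGGTCA. Capitals mark matches that lie wholly within the stretch.
Hbb-y, chr7:103853278-103853307, minus strand: accacgggtcaggcTGACCAATagcttcaa
Hba-x, chr11:32276500-32276529, plus strand: ggctccaccctgcaagcCCCCTCCCctctc
Hbb-bs, chr7:103827999-103828028, minus strand: cgtagagCCACACCCtggtaagggCCAATc
Hbb-bt, chr7:103813994-103814023, minus strand: ctgcagggtaacaccctggcATTGGCCAAT
Hba-a1, chr11:32283572-32283601, plus strand: agcacaaaccagCCAATgagaactgctcca
Hba-a2, chr11:32296392-32296421, plus strand: acaaaccagCCAATgagaactgctccaagg

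*Hbb-y* held TGACCA beginning at base -86, which overlaps its CCAAT at base -83. *Hba-x* held TGACCA too, beginning at base -40. The 4 adult windows did not hold these letters, which were found in 13.6% of the 32851 windows of the table, each from 250 bases before to 50 bases after a start site. CCACACCC, found in 3.56% of all windows, was in *Hbb-bs* and in no other globin window. CCNCNCCC was common, in 49.5% of all windows, and was also in *Hba-x* and *Hbb-bt*. CCAAT was found in 37.4% of all windows and in every globin window of the table except that of *Hba-x*. Of the GATA letters, TGATAA (9.05% of all windows) was in *Hba-x*, *Hba-a1*, *Hba-a2* and *Hbb-y*, and AGATAA (11.2%) was in *Hbb-bs*. TATAAA (13.6%) was in *Hba-x* and *Hbb-bt*, and ATAAAA (18.5%) in *Hbb-y*. AACAAT, in 10.7% of all windows, was in *Hba-x* alone, and AGGTCA, in 16.3%, was in *Hbb-y* alone. These matches describe the letters and were not tested for binding.

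Reads counted on genes ranged from 55952160 to 76157226 per library, at which 3 reads equal at most 0.0540 CPM (reads scaled to a common, normalized library size). CPM were obtained from the deposited counts, and the groups were compared with edgeR's quasi-likelihood test over 14396 genes. A gene was called at an adjusted p-value (Benjamini-Hochberg over all genes tested) under 0.05, which 19.2% of the genes passed, 9.32% higher and 9.85% lower in hnRNP L deficient cells. *Hnrnpl* itself was at 552, 531 and 528 CPM in wt 1 to 3 and at 242, 288 and 270 CPM in hnRNP L deficient 1 to 3 (log2 fold change -1.01, SE 0.09, edgeR adjusted p = 0.0072). Among marker lists, the summed CPM of 6 stem and early progenitor genes was 578 to 853 in wt and 386 to 423 in hnRNP L deficient libraries, and 5 of the 6 were called lower. The summed CPM of 7 granulocyte and monocyte genes was 7974 in wt 2 and between 238 and 1481 in the other 5 libraries. Summed CPM over 5 hepatocyte genes was 104 to 223 in wt and 20.2 to 68.6 in hnRNP L deficient libraries. Ranges were 6.32 to 24.3 and 0.932 to 2.94 CPM for 5 macrophage genes, and 1.03 to 7.10 and 0.0932 to 0.536 CPM for 5 lymphoid genes. For 4 endothelial genes they were 16.9 to 45.8 and 7.28 to 8.48 CPM, for 5 megakaryocyte genes 69.0 to 102 and 63.0 to 81.2 CPM, and for 4 mast cell and basophil genes 22.1 to 84.1 and 13.4 to 53.7 CPM.

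The comparison asked whether the loss of hnRNP L goes with a change of the globin genes in use. *Hbb-y*, the epsilon-like chain of the earliest erythrocytes, was at 13.1, 10.9 and 0.647 CPM in wt 1 to 3 and at 12.1, 7.53 and 8.06 CPM in hnRNP L deficient 1 to 3. The 3 hnRNP L deficient libraries lay within the range of the wt libraries, and wt 3 stood far below all others, with 47 reads where the rest had 492 to 781. The log2 fold change of *Hbb-y* was 0.17 (95% interval -2.19 to 2.52, edgeR adjusted p = 0.92). It was -0.38 without wt 3 and -0.07 without hnRNP L deficient 1, so that its sign rested on these libraries.

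*Hbb-bh1*, the other embryonic beta-like chain, was at 2.07, 1.87 and 0.399 CPM in wt and at 0.870, 1.33 and 1.39 CPM in hnRNP L deficient libraries. Again wt 3 was the lowest and the other wt libraries the highest, with the hnRNP L deficient libraries in between. Its log2 fold change was -0.27 (95% interval -1.62 to 1.09, edgeR adjusted p = 0.77). It was -0.71 without wt 3 and 0.094 without wt 1.

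*Hba-x*, the embryonic alpha-like (zeta) chain on the other cluster, followed the same order. It was at 2.68, 2.63 and 0.317 CPM in wt and at 1.35, 1.93 and 1.65 CPM in hnRNP L deficient libraries, with 23 reads in wt 3. The log2 fold change was -0.19 (95% interval -1.82 to 1.44, edgeR adjusted p = 0.87). It was -0.69 without wt 3 but 0.17 without wt 1 and 0.15 without wt 2. All 3 embryonic globins were thus lowest in wt 3, while the 10 erythroid markers summed to 3583 CPM there, within 2844 to 3856 CPM in wt and 2937 to 3568 CPM in hnRNP L deficient libraries. Single markers went either way in wt 3, where *Ermap* was the highest of the 6 libraries at 1169 CPM and *Tfrc* the lowest at 1014 CPM. Their part in the embryonic globin values was not tested. In such bulk samples, fewer cells that express a gene and less RNA per cell cannot be told apart.

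The adult beta globins were above the embryonic ones in every library and ordered the libraries differently. *Hbb-bs* was at 191, 321 and 134 CPM in wt and at 86.8, 306 and 228 CPM in hnRNP L deficient libraries. *Hbb-bt* was at 135, 190 and 83.7 CPM in wt and at 94.6, 262 and 210 CPM in hnRNP L deficient libraries. For both genes wt 3 was the lowest wt library and hnRNP L deficient 1 the lowest of its group, and the groups overlapped. The log2 fold change was -0.06 (95% interval -1.41 to 1.29, edgeR adjusted p = 0.95) for *Hbb-bs* and 0.47 (95% interval -0.67 to 1.61, edgeR adjusted p = 0.50) for *Hbb-bt*. That of *Hbb-bs* was 0.35 without wt 2 and 0.31 without hnRNP L deficient 1.

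The adult alpha globins also overlapped between the groups. *Hba-a1* was at 96.2, 160 and 106 CPM in wt and at 51.8, 149 and 115 CPM in hnRNP L deficient libraries, and *Hba-a2* at 47.5, 69.5 and 39.1 CPM in wt and 23.8, 64.5 and 48.7 CPM in hnRNP L deficient libraries. Both were lowest in hnRNP L deficient 1. The log2 fold change was -0.19 (95% interval -1.21 to 0.82) for *Hba-a1* and -0.19 (95% interval -1.16 to 0.79) for *Hba-a2*, each with an edgeR adjusted p of 0.77. Without hnRNP L deficient 1 they were 0.14 and 0.13, and without wt 2 they were 0.06 and 0.08. In that library the hepatocyte markers were also lowest, at 20.2 CPM, and among erythroid markers *Slc4a1*, the band 3 anion exchanger of red cells, was at 29.7 CPM against 89.4 to 184 CPM in the other 5 libraries. The part of these markers in the globin values was not tested.

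*Bcl11a* was abundant in these progenitors. It was at 308, 198 and 302 CPM in wt and at 310, 315 and 299 CPM in hnRNP L deficient libraries, with wt 2 low and the other 5 libraries within 299 to 315 CPM. The log2 fold change was 0.19 (95% interval -0.19 to 0.58, edgeR adjusted p = 0.42), and 0.01 without wt 2, the library with the high granulocyte sum. *Sox6* was at 26.8, 22.6 and 29.9 CPM in wt and at 17.5, 25.5 and 21.7 CPM in hnRNP L deficient libraries. The groups overlapped through hnRNP L deficient 2 alone, and the log2 fold change was -0.29 (95% interval -0.69 to 0.10, edgeR adjusted p = 0.24). The intervals of both factors were narrower than those of all 7 globins.

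**Figure D1:**
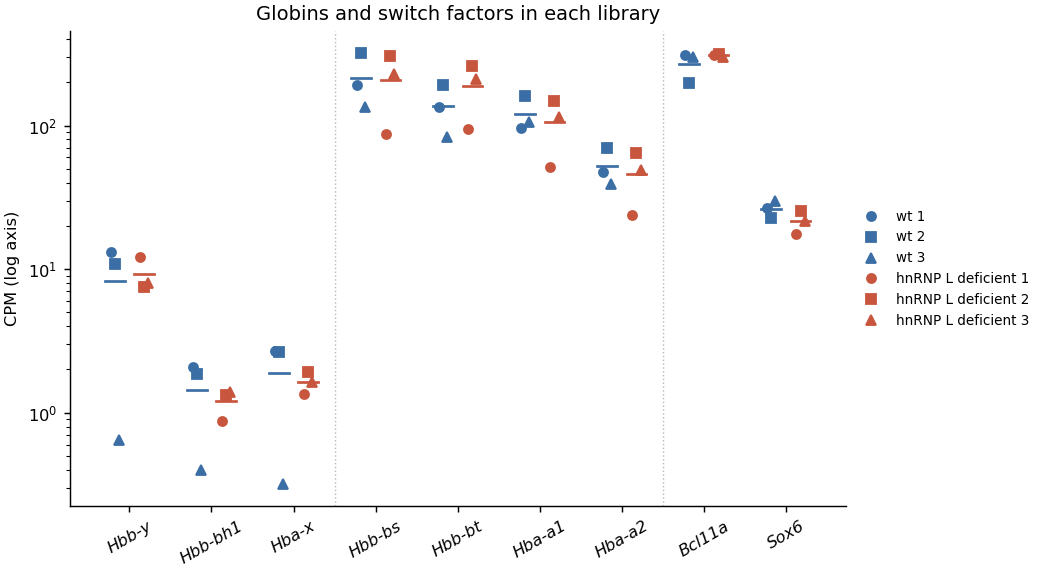
CPM on a log axis (vertical) of the 9 genes (horizontal) in each of the 6 libraries, with a symbol for each replicate number, wt in blue and hnRNP L deficient in red, and short lines at the group means. Triangles of wt 3 lie at 0.317 to 0.647 CPM for the embryonic globins, below every other point of those genes, while *Bcl11a* stays within 299 to 315 CPM in all libraries but wt 2.

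Of the 9 genes, 0 were called, and 0 had an unadjusted p under 0.05 in edgeR. The CPM of the groups overlapped for all 9, whereas they did not overlap for 45.5% of the genes tested. DESeq2 called 0 of the 9, and 4134 of the 20775 genes with a p-value. With limma-voom and sample weights, *Hbb-y* alone was called higher in hnRNP L deficient cells, with a log2 fold change of 2.45 (adjusted p = 0.039, limma), and 3 of the 9 had an unadjusted p under 0.05. Of all 14396 genes tested, edgeR called 2759 and the limma-voom fit 5288. In that fit wt 3 weighed 1.17 against 0.351 and 0.205 for wt 1 and wt 2, so that the wt value rested mainly on the library with few *Hbb-y* reads. The call was made in none of the other 14 fits.

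**Figure D2:**
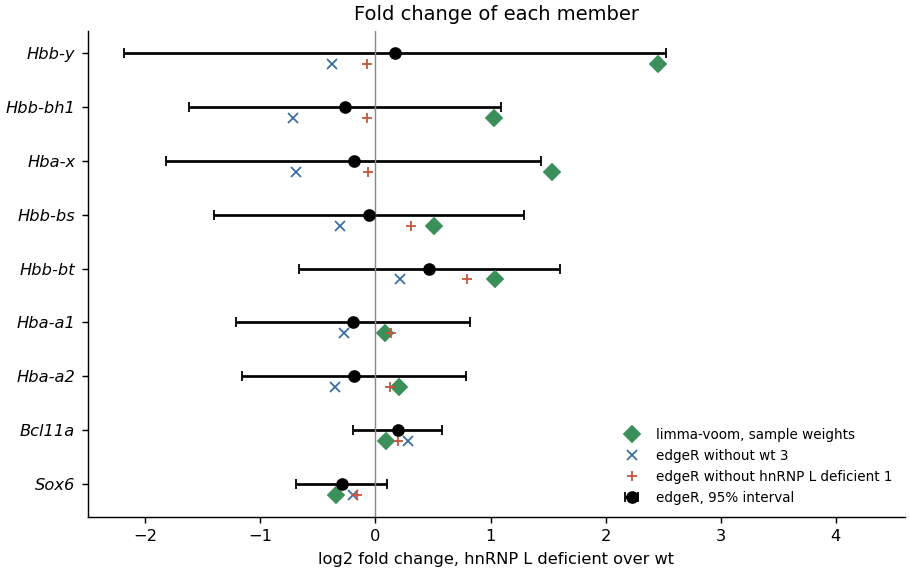
Log2 fold change (horizontal, hnRNP L deficient over wt) of each gene (vertical). Black points and bars are the edgeR values with 95% intervals over all 6 libraries, and the other symbols are the values by limma-voom with sample weights, without wt 3 and without hnRNP L deficient 1. All black bars cross 0, and the symbols of *Hbb-y* run from -0.38 to 2.45.

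Levels of different genes were compared per kilobase of exon. The order by the median of the 6 libraries was *Hbb-bs* (273 CPM per kb), *Hbb-bt* (231), *Hba-a1* (136), *Hba-a2* (72.1), *Bcl11a* (23.2), *Hbb-y* (15.0), *Hbb-bh1* (2.22), *Hba-x* (1.91) and *Sox6* (1.62). Neighbours in this order overlapped over the libraries, as for *Hbb-bs* at 113 to 418 and *Hbb-bt* at 119 to 372 CPM per kb, except that the lowest *Hba-a2* value (35.7) was above the highest of *Bcl11a* (23.9). Among embryonic globins *Hbb-y* was at 1.02 to 20.8, above *Hbb-bh1* at 0.651 to 3.38 CPM per kb in every library. The 4 adult values count placeable reads alone, so that their place in this order is a lower estimate. The exon length joins all annotated exons, 13.2 kb for *Bcl11a* and 14.8 kb for *Sox6*. Their longest coding transcripts have 5989 and 8668 bases. The values of both factors would be higher over those lengths, so that their place in this order depends on the length used.

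Shares within a library do not depend on its normalization, and were compared by exact two-sided permutation tests of 3 against 3 libraries, which cannot go below p = 0.1. In all, 6 shares were tested. Intervals of shares are exact binomial 95% intervals and cover counting error only. The 7 globins together took 0.0484%, 0.0788% and 0.0379% of the reads on genes in wt 1 to 3 and 0.0262%, 0.0778% and 0.0600% in hnRNP L deficient 1 to 3. These groups overlapped, with means of 0.0550% ± 0.0212 (SD, n = 3) and 0.0547% ± 0.0262 (SD, n = 3; exact permutation p = 0.9).

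*Hbb-y* and *Hbb-bh1* made up 4.45%, 2.44% and 0.477% of the beta-like reads in wt 1 to 3 and 6.69%, 1.54% and 2.12% in hnRNP L deficient 1 to 3. The highest and the lowest share were thus in different groups, at intervals of 6.25% to 7.14% for hnRNP L deficient 1 and 0.376% to 0.597% for wt 3, so that counting error was small beside the spread. Group means were 2.46% ± 1.99 (SD, n = 3) in wt and 3.45% ± 2.82 (SD, n = 3) in hnRNP L deficient libraries (exact permutation p = 0.7, 1 after adjustment over the 6 shares).

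*Hba-x* made up 1.83%, 1.14% and 0.217% of the alpha-like reads in wt and 1.76%, 0.894% and 0.995% in hnRNP L deficient libraries. Its order among the libraries was close to that of the beta-like share, with wt 3 lowest and wt 1 and hnRNP L deficient 1 highest. The means were 1.06% ± 0.81 and 1.21% ± 0.471 (SD, n = 3 each; exact permutation p = 1).

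Within the embryonic beta-like reads, *Hbb-y* took 86.4%, 85.4% and 61.8% in wt and 93.3%, 85.0% and 85.3% in hnRNP L deficient libraries. The low value of wt 3 rests on 76 reads and has an interval of 49.98% to 72.8%, below those of the other 5 libraries. The means were 77.9% ± 13.9 and 87.9% ± 4.73 (SD, n = 3 each; exact permutation p = 0.6).

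Of the adult beta reads, *Hbb-bs* took 58.6%, 62.8% and 61.6% in wt 1 to 3. In hnRNP L deficient 1 to 3 it took 47.9%, 53.9% and 52.1%. All 3 hnRNP L deficient libraries were below all wt libraries, and the nearest pair, wt 1 and hnRNP L deficient 2, had intervals of 57.9% to 59.3% and 53.4% to 54.4%. The means were 61.0% ± 2.15 and 51.3% ± 3.10 (SD, n = 3 each), a difference of -9.73 percentage points. This gave the smallest p of the design (exact permutation p = 0.1, 0.6 after adjustment over the 6 shares), which does not pass 0.05. It was the only 1 of the 6 shares whose groups did not overlap, where 45.5% of single genes did not overlap in CPM. The difference lay between -11.0 and -8.01 points whichever library was omitted. In the exon bin counts of 5 libraries the shares were 66.5%, 69.5% and 68.6% against 61.1% and 59.6% (exact permutation p = 0.2, the smallest for 3 against 2).

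The other near-identical pair did not show this. *Hba-a1* took 66.9%, 69.7% and 73.1% of the adult alpha reads in wt and 68.5%, 69.8% and 70.3% in hnRNP L deficient libraries (exact permutation p = 1), the means being 69.9% ± 3.07 and 69.5% ± 0.948 (SD, n = 3 each). Whether the beta and the alpha pair differed from each other was not tested. The shares cover the reads that could be placed on 1 gene of a pair. The *Hbb* haplotype of the embryos was not checked here.

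**Figure D3:**
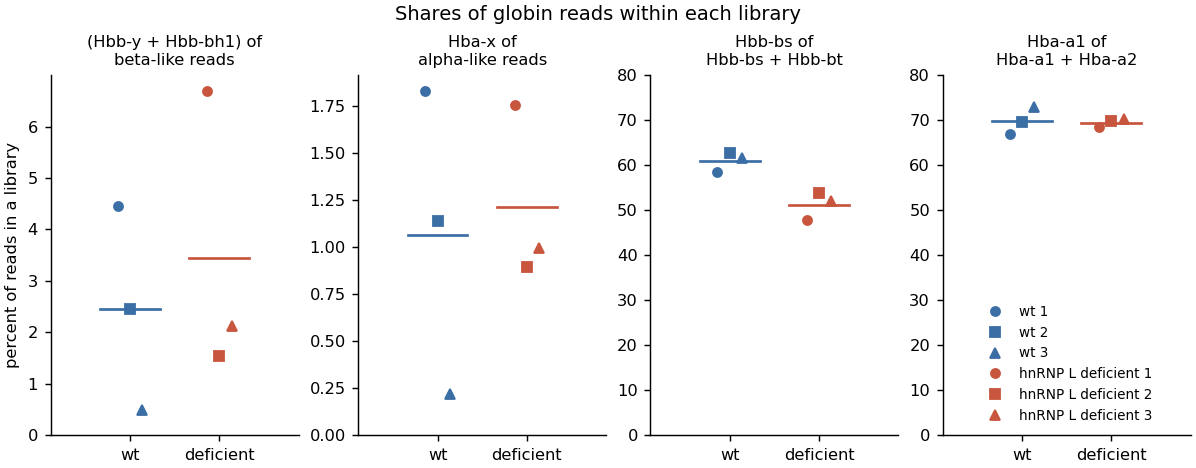
Percent of reads (vertical) in each library, by group (horizontal), for *Hbb-y* and *Hbb-bh1* among beta-like, *Hba-x* among alpha-like, *Hbb-bs* among adult beta and *Hba-a1* among adult alpha globin reads, with lines at group means and each vertical axis starting at 0. The *Hbb-bs* points of hnRNP L deficient libraries (47.9% to 53.9%) lie under all wt points (58.6% to 62.8%), and the groups overlap in the other 3 panels.

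Exon bins, the stretches into which the annotation cuts a gene's exons, were counted in 5 libraries (3 wt, hnRNP L deficient 2 and 3) and tested with diffSpliceDGE of edgeR, which compares a bin's fold change with that of its gene. Of 75 bins of the 9 genes, 60 had a mean of at least 10 reads. Of these 0 were called, against 0.0288% of the 176996 bins tested, and 1 had an unadjusted p under 0.05. limma's diffSplice also called 0 of the 60. The share of the gene's reads did not overlap between the groups for 19 of the 60 bins, against 20.4% of all bins, and 11 of these 19 were in *Sox6*.

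The bin with the lowest p was bin 7 of *Bcl11a* (chr11:24085651-24090906 in GENCODE M21), which directly follows the second exon and is exonic only in a transcript annotated as a retained intron. It held 5.45%, 5.80% and 5.51% of the *Bcl11a* bin reads in wt 1 to 3 and 3.65% and 3.86% in hnRNP L deficient 2 and 3, or 878 to 1551 reads per library. The groups did not overlap, and its log2 usage differed by -0.57 (adjusted p = 1.00, edgeR). Its unadjusted p in that fit was 0.021. It was 0.024, 0.00070 and 0.038 without wt 1, 2 and 3 in turn, and 0.17 and 0.11 without hnRNP L deficient 2 and 3. The neighbouring exon part, bin 6, held 14.7%, 13.6% and 13.4% in wt and 13.3% and 13.9% in hnRNP L deficient libraries, with a log2 usage of -0.04.

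**Figure D4:**
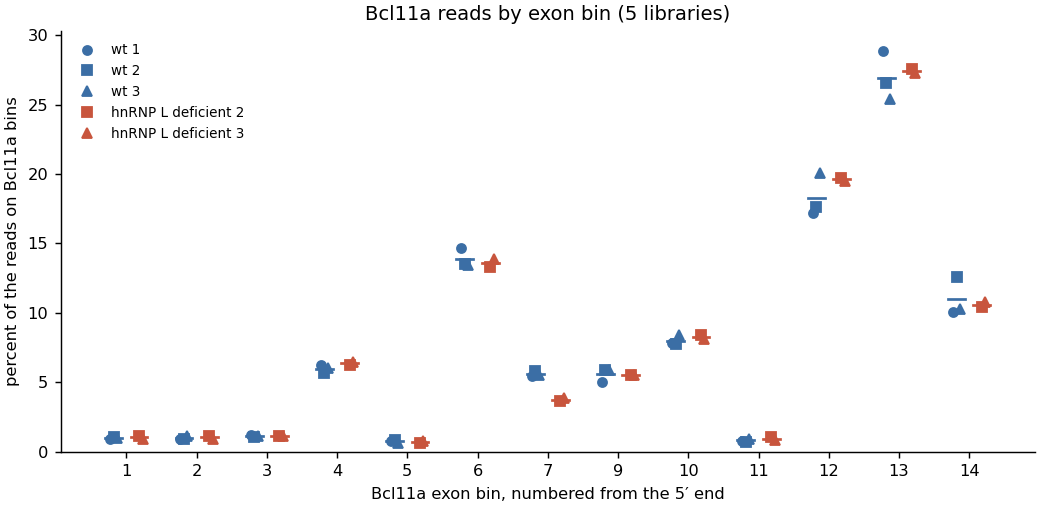
Percent of the *Bcl11a* bin reads (vertical) on each tested exon bin (horizontal, numbered from the 5′ end) in 5 libraries, with lines at the group means. Bin 7 lies at 5.45% to 5.80% in wt and at 3.65% to 3.86% in hnRNP L deficient libraries, while the groups lie together for most of the other bins.

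*Sox6* had 19 tested bins, of which 6 took a higher and 5 a lower share in both hnRNP L deficient libraries than in every wt library. Bin 8, for example, held 4.18%, 2.60% and 4.17% in wt and 5.24% and 5.73% in hnRNP L deficient libraries, and bin 21 held 1.03%, 1.33% and 0.874% in wt and 0.485% and 0.586% in hnRNP L deficient libraries. The lowest p in *Sox6* was 0.19, and bin 21 rests on 11 to 27 reads per library. Because bins of a gene share their total, a rise of some is tied to a fall of others. The annotation used here cuts *Sox6* into another number of bins than the deposited table, and so no positions are given for it.

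In the adult alpha genes, bins 1 and 2, at the 5′ end, held 0 reads in all 5 libraries, in both *Hba-a1* and *Hba-a2*. The part of reads that align to both genes of the pair in these zeros was not tested. The zeros therefore do not show that these stretches are missing from the transcripts. The last bin, the end of the last exon, held 18.2% and 17.1% of the *Hba-a1* bin reads in wt 1 and wt 2 but 10.3% in wt 3, 11.3% in hnRNP L deficient 2 and 11.4% in hnRNP L deficient 3. For *Hba-a2* these shares were 19.1%, 19.0%, 11.7%, 11.6% and 11.5%. In both genes wt 3 lay with the hnRNP L deficient libraries and apart from the other wt libraries. In the beta pair, bin 1 of *Hbb-bs* showed the same split, at 0.634% and 0.556% in wt 1 and wt 2 and 0.233%, 0.139% and 0.188% in the other 3 (log2 usage -1.67, adjusted p = 1.00, edgeR).

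Other genes that act on the globin loci were taken from 5 lists with 54 genes, of which 50 were tested. Of these 2 rose and 6 fell in hnRNP L deficient cells, beside 9.32% and 9.85% of all genes tested. Among 10 activators, which include the erythroid master factors, 1 rose and 0 fell. *Mafk*, a small Maf protein that pairs with Nfe2 at the locus control region, was at 61.6, 49.1 and 62.8 CPM in wt and at 75.3, 76.4 and 73.3 CPM in hnRNP L deficient libraries (log2 fold change 0.38, edgeR adjusted p = 0.046). *Gata1*, the main GATA factor of red cells, was at 181 to 251 CPM in wt and 298 to 318 CPM in hnRNP L deficient libraries, without overlap (log2 fold change 0.43, edgeR adjusted p = 0.060). *Klf1*, which binds the CACCC box of adult beta globin, differed by 0.31 on the log2 scale (edgeR adjusted p = 0.16) and *Mafg*, another small Maf protein, by 0.22 (edgeR adjusted p = 0.088). The median log2 fold change of the 10 was 0.26, against -0.03 over all genes tested.

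Of 14 repressors and modulators of embryonic globins, with *Bcl11a* and *Sox6* among them, 0 rose and 4 fell, with a median log2 fold change of -0.17. *Bach1*, which heme releases from the Maf sites it represses, was at 61.3, 61.6 and 59.1 CPM in wt and at 41.9, 41.7 and 39.6 CPM in hnRNP L deficient libraries (log2 fold change -0.56, edgeR adjusted p = 0.010). *Nr2c2* and *Nr2c1*, the orphan nuclear receptors TR4 and TR2 that bind embryonic globin promoters, fell together. *Nr2c2* went from 118 to 127 CPM in wt to 91.3 to 95.7 CPM in hnRNP L deficient libraries (log2 fold change -0.39, edgeR adjusted p = 0.016), and *Nr2c1* from 19.9 to 20.2 CPM to 14.8 to 16.4 CPM (-0.37, edgeR adjusted p = 0.041). *Nfix*, a nuclear factor I protein, was at 28.3 to 37.5 CPM in wt and 23.3 to 26.2 CPM in hnRNP L deficient libraries (-0.44, edgeR adjusted p = 0.046).

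Of 17 corepressor and silencing enzymes 1 rose and 0 fell, with a median log2 fold change of 0.09. *Gatad2a*, a subunit of the NuRD complex, was at 162 to 168 CPM in wt and 201 to 231 CPM in hnRNP L deficient libraries (log2 fold change 0.36, edgeR adjusted p = 0.027). The next by p were *Mta2* (0.26, adjusted p = 0.076) and *Mta3* (0.40, adjusted p = 0.082), also of NuRD, and the methyltransferase *Ehmt1* (-0.20, adjusted p = 0.079), none of which passed in edgeR.

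Among 8 embryonic and fetal stage factors 0 rose and 2 fell, and the median log2 fold change was -0.81. *Hmga2*, a chromatin protein of fetal stem cells, was at 79.3, 130 and 91.3 CPM in wt and at 37.1, 37.5 and 36.7 CPM in hnRNP L deficient libraries (log2 fold change -1.43, edgeR adjusted p = 0.011). *Igf2bp2*, an RNA-binding protein, was at 27.7 to 39.1 CPM in wt and 12.4 to 19.1 CPM in hnRNP L deficient libraries (-1.01, edgeR adjusted p = 0.021). *Igf2bp3* (-0.42, adjusted p = 0.067) and *Lin28b*, the fetal regulator of let-7 (0.31, adjusted p = 0.087), did not pass in edgeR. The stem and progenitor marker sum moved in the same direction as these falls, and its part in them was not tested. Of other globins, *Hbq1b* (theta) alone was tested, at 0.140 to 0.444 CPM in all libraries (log2 fold change 0.57, edgeR adjusted p = 0.48), while *Hbb-bh0*, *Hbb-bh2* and *Hbq1a* had at most 0.0268 CPM and 1 further listed gene is not reported here.

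**Figure D5:**
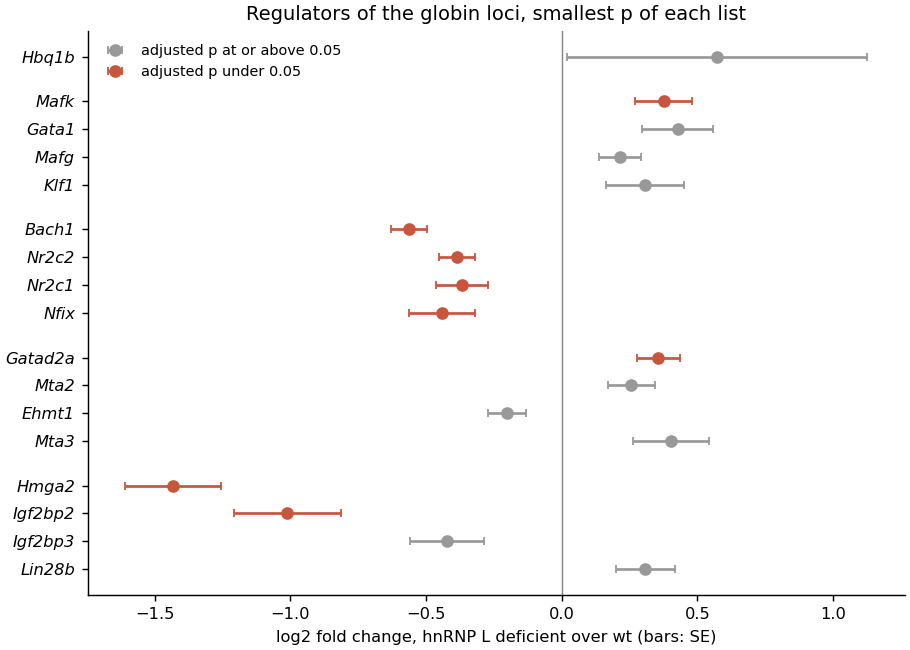
Log2 fold change with SE (horizontal, hnRNP L deficient over wt) of the listed regulators with the lowest p-values (vertical, grouped by list from other globins at the top to stage factors at the bottom). Red points passed the adjusted p threshold of 0.05 in edgeR and grey points did not, with *Hmga2* farthest to the left at -1.43.

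Calls in the lists depended on which libraries entered the fit. Without wt 1, 8 listed genes rose and 7 fell, and 4791 of all genes were called. Without wt 2, 4 rose and 9 fell, and 3527 of all genes were called. Without wt 3, or without any 1 of the 3 hnRNP L deficient libraries, 0 of the listed genes and between 5 and 17 of all genes were called, and *Hnrnpl* itself was at an edgeR adjusted p of 0.052 to 0.085. The log2 fold change of *Bach1* stayed between -0.58 and -0.53 and that of *Nr2c2* between -0.41 and -0.36, whichever library was omitted.

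The genes whose levels followed the members most closely over the 6 libraries were sought among 8596 genes with a mean of at least 10 CPM, by Pearson r of log2(CPM + 0.1). These r describe the best 3 of many genes over few libraries that share depth and cell makeup. For *Hbb-bs* and *Hbb-bt* summed, the first was *Alas2*, the erythroid enzyme that begins heme synthesis (r = 0.9751), at 23.4, 30.9 and 20.3 CPM in wt and 14.5, 36.6 and 29.9 CPM in hnRNP L deficient libraries. It was lowest in hnRNP L deficient 1 and in wt 3 within its group, as the adult beta globins were, and *Trip4* (r = 0.959) and *Mfap3* (r = 0.953) came next. For *Hbb-y* and *Hbb-bh1* summed, they were *Sec22b* (r = 0.982), *Stam2* (r = 0.980) and *Mrfap1* (r = 0.979), each lowest in wt 3. These differed far less than the globins did, *Sec22b* lying at 57.7 CPM in wt 3 and 64.9 to 67.9 CPM elsewhere. For *Bcl11a* they were *Qk* (r = 0.997), *Pacsin2* (r = 0.996) and *Alkbh8* (r = 0.995), which were lowest in wt 2. For *Sox6* they were *Ccnt2* (r = 0.990), *Slc25a38* (r = 0.984) and *Dgcr8* (r = 0.979), which were lowest in hnRNP L deficient 1.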

How the data were processed

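RNA of Lin-cKit+ FL cells was sequenced from 6 embryos, and groups were taken from the genotype in the sample labels. The authors aligned reads to GRCm38 (mm10) with TopHat2 2.0.10, processed them with SAMtools, and deposited counts without normalization, per Ensembl gene by HTSeq (6 libraries) and per exon bin by the DEXSeq script (5 libraries). Exon bins of hnRNP L deficient 1 were not analysed here. Read length and counting options are not given in the sources used here, nor is the meaning of the first part of the embryo numbers, which wt 1 shares with hnRNP L deficient 1, and hnRNP L deficient 2 with hnRNP L deficient 3.

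Counts were normalized by TMM and tested with edgeR 4.0.16 (R 4.3.3; filterByExpr, robust quasi-likelihood fit, Benjamini-Hochberg over 14396 genes), and bins averaging 10 reads or more with diffSpliceDGE. SE is the log2 fold change over the square root of F, and 95% intervals use the total degrees of freedom of the fit. CPM used normalized library sizes. Symbols were matched for 36345 of 38293 genes, and rows for reads on no gene were left out. Alternatives used DESeq2 1.42.0, limma 3.58.1, other scalings and filters, and each library left out. P-values measure the spread among these embryos. Steps were tested on simulated data, for genes with less spread between libraries than in these data. For genes that check does not cover the spread seen here. Shares were tested with scipy 1.17.1.

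The genes described, the lists and the tests were chosen with earlier results of these data known. From each list at most 4 genes with the lowest p are named, from marker lists the sums, and for each of 4 measures the 3 genes with the highest r. *Slc4a1*, *Tfrc* and *Ermap* were named, and *Sox6* bins 8 and 21, *Hbb-bs* bin 1 and the last *Hba* bins, after their values were seen. Sequences are from RefSeq (promoters, matched for 6 of 7 globins) and GENCODE M21.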

Additional observations from a re-analysis of the deposited data

How the results depend on the processing

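With limma-voom and sample weights the log2 fold change turned from negative to positive for *Hba-a1* (0.086), *Hba-a2* (0.21), *Hba-x* (1.53), *Hbb-bs* (0.51) and *Hbb-bh1* (1.03), and 1 of the 9 genes (*Hbb-y*) was called. The other alternatives called 0 of the 9. Leaving out each library in turn gave -0.51 to 0.14 for *Hba-a1*, -0.50 to 0.13 for *Hba-a2*, -0.69 to 0.17 for *Hba-x*, -0.44 to 0.35 for *Hbb-bs*, -0.71 to 0.094 for *Hbb-bh1* and -0.38 to 0.68 for *Hbb-y*. *Hbb-bt*, *Bcl11a* and *Sox6* kept their direction in all 14 alternatives. Of the listed genes, 5 rose with DESeq2, 7 with limma-voom and 1 with total counts, and 12 fell with limma-voom. Over all genes, DESeq2 called 4134 of 20775, limma-voom 5288 of 14396 and total counts 2817 of 14396. With a library left out, 0 to 8 listed genes rose and 0 to 9 fell, where 5 to 4791 of all genes were called. *Nfix* was above the threshold in 8 of 14 alternatives and *Mafk* in 5. In percentage points, leaving out each library gave -0.631 to 1.99 for the embryonic beta-like share, -0.270 to 0.537 for the embryonic alpha-like share, -1.84 to 1.23 for *Hba-a1* among adult alpha reads and -0.0119 to 0.0139 for the globin share of all reads. Exon bin counts, which lack hnRNP L deficient 1, gave -0.632, -0.0460 and 0.389 for the first 3. The shares of *Hbb-bs* and *Hbb-y* kept their direction in all 8 alternatives each, and 0 member bins were called in all 8 of theirs. No paired analysis was possible because the replicates were numbered in accession order, and the groups share the first part of an embryo number in 1 pair only (wt 1 and hnRNP L deficient 1). Counts of the 9 genes were lowest for the embryonic globins of wt 3, at 23 to 47 reads.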

Other observations

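*Tfrc*, the transferrin receptor of early erythroblasts, was at 1014 to 1414 CPM in wt and 1022 to 1218 CPM in hnRNP L deficient libraries. *Ermap*, an erythroid membrane protein, was at 754 to 1169 CPM in wt and 973 to 1058 CPM in hnRNP L deficient libraries. For both genes the groups overlapped.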
